A study of Mus musculus with 27 samples.

Results

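The genes described here are inhibitor of DNA binding genes and other genes of the bone morphogenetic protein (BMP) pathway, measured in cancer-associated fibroblast (CAF) segments of mouse liver metastases. They were chosen by name (Id1, Id2, Id3, Id4, Bambi, Smad1, Smad6, Bmpr2, Bmp4 and Grem1) with their difference between the groups already in view, so that difference is given as a description and without a test. The sheet used here lists 9 of the 10 among its 18855 targets, and Id4 was not analysed here. Of the 9, all but Bmp4 lay above background on average. MC38 mouse colorectal cancer cells were injected into the portal vein of C57BL/6 mice 2 months of age, and formalin-fixed frozen sections of the liver metastases were hybridized with a probe panel for the whole mouse transcriptome. In each region of interest (ROI), the desmin-positive area was collected with the GeoMx Digital Spatial Profiler. Desmin is a filament protein that marks stellate cells, pericytes and smooth muscle. The control group holds 14 ROIs of metastases from MC38 cells with a nontargeting shRNA, and the CMTM6-knockdown group holds 13 ROIs of metastases from MC38 cells with a CMTM6 shRNA. Both groups received transduced tumor cells, and the shRNA was in those cells and not in the fibroblasts of the host. Each group came from 3 mice. Which ROI came from which mouse is not in the labels, so some ROIs share an animal and p-values over ROIs are too small.

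BMP ligands such as BMP4 bind a complex of type I and type II receptors, which phosphorylates SMAD1 and its relatives. These SMADs move with SMAD4 into the nucleus and switch on target genes, of which the Id genes are the classical ones. ID proteins have a helix-loop-helix domain without a DNA-binding region, and they hold E proteins and other basic helix-loop-helix (bHLH) factors away from their E-box sites. In the liver, BMP signals act on hepatocytes, sinusoidal endothelium and stellate cells, and in mice Id2 is also known for its need in natural killer (NK) cells, innate lymphoid cells and a subset of dendritic cells.

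Promoter sequence is shown for Id2 and Grem1, the members with the highest and the lowest difference between the groups. RefSeq promoter windows of the mouse build GRCm38.p6 held 250 bases before the start of 7 of the 9 genes (Bmpr2, Grem1, Id2, Id3, Smad6, Bmp4 and Smad1). Motifs were searched on both strands: GGCGCC, a palindrome that BMP SMADs are known to bind, CANNTG, the E-box, and GTCT or AGAC, the SMAD-binding element. GGCGCC stood in 3 of the 7 windows (Bmpr2, Grem1 and Id2) and in 9.59% of all 32851 windows. CANNTG stood in 2 of 7 (Id2 and Bmp4) against 66.2% of all windows, and GTCT or AGAC in 5 of 7 against 82.9%. In the stretches below, read 5′ to 3′ on the minus strand, capitals mark GGCGCC and, in Id2, the E-box. The Id2 stretch is chr12:25096254-25096342 and runs from 250 to 162 bases before the start, since the rest of its window overlaps an annotated exon. The Grem1 window is chr2:113758649-113758898.
Id2: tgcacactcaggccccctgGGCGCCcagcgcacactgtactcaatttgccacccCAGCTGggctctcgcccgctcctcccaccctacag
Grem1: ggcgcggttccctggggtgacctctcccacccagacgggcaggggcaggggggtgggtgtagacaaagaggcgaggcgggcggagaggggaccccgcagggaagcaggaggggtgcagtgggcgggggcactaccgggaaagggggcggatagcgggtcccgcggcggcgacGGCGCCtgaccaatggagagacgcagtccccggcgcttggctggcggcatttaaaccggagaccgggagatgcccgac
The GGCGCC match began 231 bases before the start of Id2 and 78 bases before that of Grem1, and the E-box match of Id2 began 196 bases before its start. A match describes the letters in the window and does not show that a factor binds there.

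The values behind the results are signals that the authors had scaled with 1 factor per ROI. Control ROIs held 659571 to 3269149 reads and knockdown ROIs 76346 to 2776820, with the fewest in ROI 26. The scaling was made within each group, and the median difference over all targets in deposited log2 values was -0.66, with 17722 targets (94.0%) called lower in the knockdown group. Levels below are therefore relative log2 values, log2(value + 1) minus the median over all targets of the same ROI, after which the median difference was -0.05. A change common to all targets cannot be seen on this scale. Des, the gene for the stain, had a relative log2 level of 1.16 in control and 1.15 in knockdown ROIs, and the 14 genes of a fibroblast and stellate cell list took 112 to 253 of every 10000 reads in control and 108 to 293 in knockdown ROIs, so genes of the labelled cell type were read in every ROI. Cmtm6, silenced in the tumor cells, differed by 0.08 (SE 0.10, limma adjusted p = 0.810), which checks nothing about labels of the segments. On the relative scale limma called 22 targets (0.117%) at an adjusted p under 0.05, 21 of them (0.111%) higher and 1 (0.0053%) lower in the knockdown group. The count of higher targets was 49 without ROI 26, 38 without ROI 13, 12 without ROI 5 and 13 without ROI 16. No target of the 18855 (0%) had groups of ROIs that did not overlap.

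Id2 was the member with the largest difference, and those of Id1 (0.17, SE 0.14) and Id3 were smaller. The sign of the Id3 difference depended on the setting. It was -0.08 on relative values, -0.0058 without ROI 26 and 0.11 with edgeR on recovered reads. Id2 had relative log2 levels from 0.00 (ROI 11) to 0.79 (ROI 1) with a median of 0.52 in the 14 control ROIs. In the 13 knockdown ROIs it ranged from 0.43 (ROI 28) to 1.29 (ROI 26) with a median of 1.06. Of the 13 knockdown ROIs, 11 lay above every control ROI and 12 above the control median, so the groups overlapped through ROI 28 and ROI 20. The mean difference was 0.54 (SE 0.11), a 1.45-fold higher level relative to the median target, but in the deposited values Id2 stood at 42.2 ± 7.44 in control (SD, n = 14) and 41.1 ± 11.6 in knockdown ROIs (SD, n = 13), a log2 difference of -0.06. Deposited values were scaled within each group, so their means do not show whether the amount of Id2 changed. The difference of 0.54 is relative to the median target, and edgeR on recovered reads gave 0.61. The reads behind Id2 were 16 to 92 per control ROI and 5 to 148 per knockdown ROI. Without ROI 26, where 1 read is worth 14.1 units and Id2 had 5 reads, the difference was 0.52.

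Id1 encodes an ID protein of endothelial and progenitor cells that is induced by BMP. Its relative log2 level ran from -0.24 to 0.77 with a median of 0.11 in control and from -0.25 to 0.96 with a median of 0.35 in knockdown ROIs. The ranges largely overlapped. Of the 13 knockdown ROIs, 10 lay above the control median of Id1, 2 above every control ROI and 1 below every control ROI. The mean difference was 0.17 (SE 0.14). Id3, its close relative, ran from 0.00 to 1.85 with a median of 0.96 in control and from -0.16 to 1.50 with a median of 1.02 in knockdown ROIs. No knockdown ROI lay above every control ROI, and the mean difference was -0.08 (SE 0.16). Id3 exceeded the background level of its own ROI in 14 of 14 control and 11 of 13 knockdown ROIs. In deposited values Id1 was 34.9 ± 8.84 in control ROIs (SD, n = 14) and 26.0 ± 8.27 in knockdown ROIs (SD, n = 13), and Id3 was 59.4 ± 18.3 against 36.3 ± 9.44. Both had lower deposited means in the knockdown group, as most targets had, while the deposited mean of Id2 was nearly the same in both groups. These values were scaled within each group, so the means do not compare amounts. Within an ROI, where scaling cancels but for the pseudocount, log2 of Id2 over the mean of Id1 and Id3 had a median of -0.13 in control and 0.60 in knockdown ROIs, a mean difference of 0.49 (SE 0.16).

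Of the ligand and its antagonist, Bmp4 sat at background and Grem1 had the lowest difference of the members. Bmp4 encodes a BMP ligand made by mesenchymal cells, among others. Its relative log2 level ran from -2.34 to -0.25 with a median of -0.90 in control and from -1.57 to 0.00 with a median of -0.92 in knockdown ROIs, and only 1 of 27 ROIs exceeded the background level of its own ROI. The difference of 0.07 (SE 0.17) turned to -0.0042 without ROI 26. Grem1 encodes gremlin 1, a secreted protein that binds BMP ligands and keeps them from their receptors. Its relative log2 level ran from -0.58 to 1.34 with a median of 0.42 in control and from -0.79 to 0.98 with a median of -0.20 in knockdown ROIs. All but 2 knockdown ROIs (ROI 19 at 0.96 and ROI 26 at 0.98) lay below the control median, and only 1 lay below every control ROI. Grem1 exceeded the background level of its own ROI in 11 of 14 control and 6 of 13 knockdown ROIs. The mean difference was -0.46 (SE 0.18), and it was -0.55 without ROI 26, whose Grem1 level rests on 4 reads.

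Bmpr2 and Bambi stand for the receptor step. Bmpr2 encodes the type II BMP receptor, and its relative log2 level ran from 1.38 to 2.52 (median 1.99) in control and from 1.65 to 2.48 (median 1.96) in knockdown ROIs. The means differed by -0.01 (SE 0.11). Bambi encodes a pseudoreceptor without a kinase domain that dampens BMP and TGF-β signals, and in mouse stellate cells it is known to be lowered through the receptor TLR4. It ran from -1.19 to 0.22 (median -0.29) in control and from -0.80 to 0.57 (median -0.37) in knockdown ROIs, with a difference of 0.02 (SE 0.13) that was -0.05 without ROI 26. Bambi exceeded its ROI's background in 7 of 14 control and 3 of 13 knockdown ROIs. Neither gene separated the groups. Smad1 and Smad6 stand for the step inside the cell. Smad1, the signal carrier, ran from 1.23 to 2.31 (median 1.76) in control and from 0.61 to 2.21 (median 1.60) in knockdown ROIs, with a difference of -0.19 (SE 0.12). Smad6, an inhibitory SMAD and itself a BMP target, ran from -1.44 to 0.22 (median -0.50) in control and from -0.95 to 0.52 (median -0.21) in knockdown ROIs, with a difference of 0.15 (SE 0.16). It exceeded its ROI's background in 2 of 14 control and 6 of 13 knockdown ROIs. In deposited values, which were scaled within each group, all 9 members had negative log2 differences, from -1.07 (Grem1) to -0.06 (Id2).

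**Figure D1:**
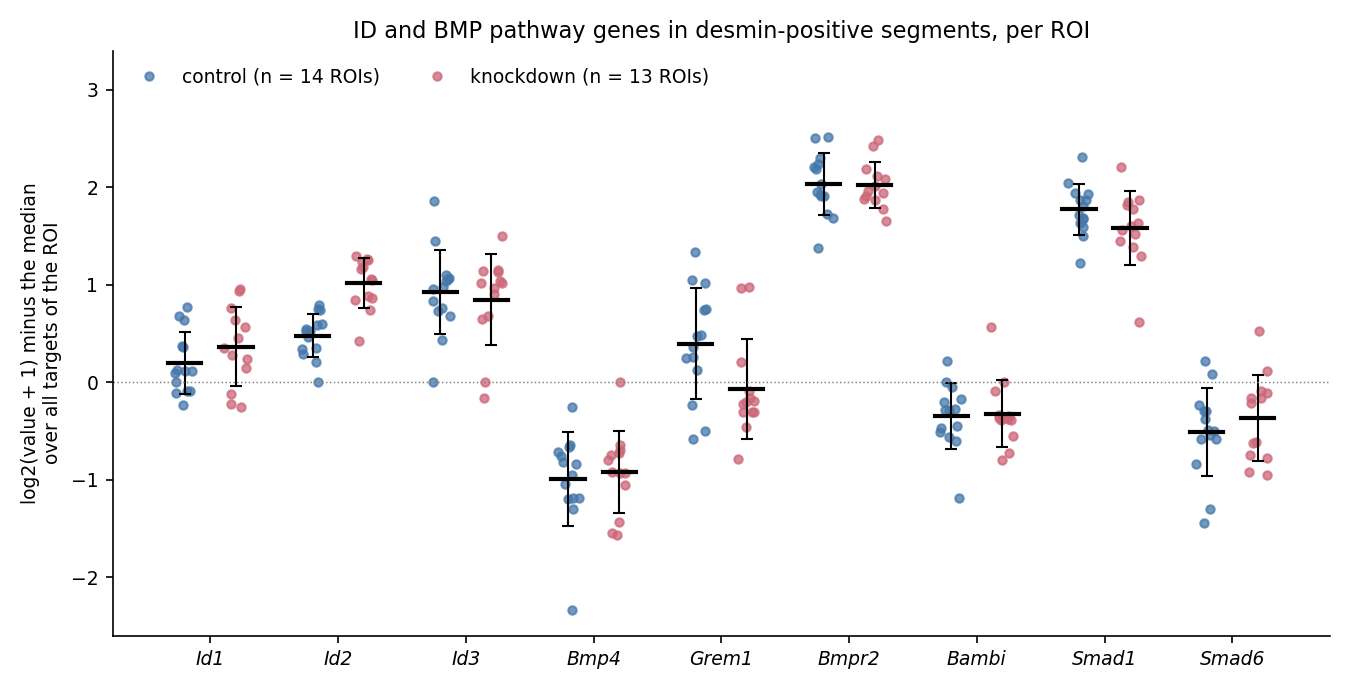
Relative log2 level of the 9 measured genes (y axis, log2(value + 1) minus the ROI's median over all targets) in each of 14 control and 13 knockdown ROIs (points), with the mean (thick line) and SD (bar). Id2 is the gene with most knockdown points above the control points, 11 of 13. In deposited values, which were scaled within each group, its means were 42.2 in control and 41.1 in knockdown ROIs.

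Of the genes of BMP signaling and of bHLH partners outside the members, none was called. The lists were drawn up by role and held 74 measured genes, 12 of which are bHLH genes and not parts of the BMP pathway itself, and 44 of the 74 were above background. Their median difference was 0.00, against -0.05 over all targets, and they ranged from -0.44 to 0.42. limma called 0 of 74 at an adjusted p under 0.05 on relative values (0.117% of all targets were called), and edgeR called 0 of 74 on the recovered reads (0.679% of all targets). At an unadjusted p under 0.05, limma had 8 of 74 (10.8%, against 9.89% of all targets), 2 higher and 6 lower. At the same threshold edgeR had 11 of 74, where 1057 of all 18855 targets were higher and 747 lower. In deposited values 65 of the 74 were called, where 94.0% of all targets were lower.

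By role, the genes above background with the smallest p-values are given here, and none passed the adjusted threshold. Among 13 ligands, Bmp5 had a difference of 0.36 (SE 0.13, limma adjusted p = 0.382), Gdf6 of -0.22 and Bmp2, a ligand of the liver endothelium, of 0.11. Among 11 receptors and coreceptors, the activin type II receptors Acvr2b and Acvr2a, which also bind BMPs, had -0.30 (SE 0.14, limma adjusted p = 0.473) and -0.28 (SE 0.14, limma adjusted p = 0.492). The type I receptor Bmpr1a had -0.19 and the coreceptor Rgma -0.19. Among 12 SMADs and regulators, Smurf1, a ubiquitin ligase that marks BMP SMADs for degradation, had -0.25 (SE 0.10, limma adjusted p = 0.404). The shared partner Smad4 had -0.13, Ywhae -0.19 and the corepressor Skil -0.18. Among 14 extracellular antagonists other than Grem1, Bmper had 0.27 (SE 0.17, limma adjusted p = 0.609), Dand5 0.14, Nbl1 0.11 and Twsg1 0.10.

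Among 12 target genes outside the Id family, the cardiac factor Nkx2-5 had -0.38 (SE 0.14) with the smallest adjusted p of the 74 (limma adjusted p = 0.366). The chondrogenic factor Sox9 had -0.44 (SE 0.17, limma adjusted p = 0.389), Runx2 of the osteoblast lineage -0.23 and Gata2 -0.13. The 12 measured bHLH genes, whose products can pair with ID proteins or with their partners, held 0 genes called by limma or edgeR and 0 at an unadjusted limma p under 0.05. Twist1 had -0.34 (SE 0.18, limma adjusted p = 0.543), Hand2, a stellate cell factor, 0.26, Twist2 0.10 and the E protein gene Tcf3 -0.06. Hamp, the hepatocyte target of BMP6, had the highest difference of the 74 (0.42) but lay at or below background.

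**Figure D2:**
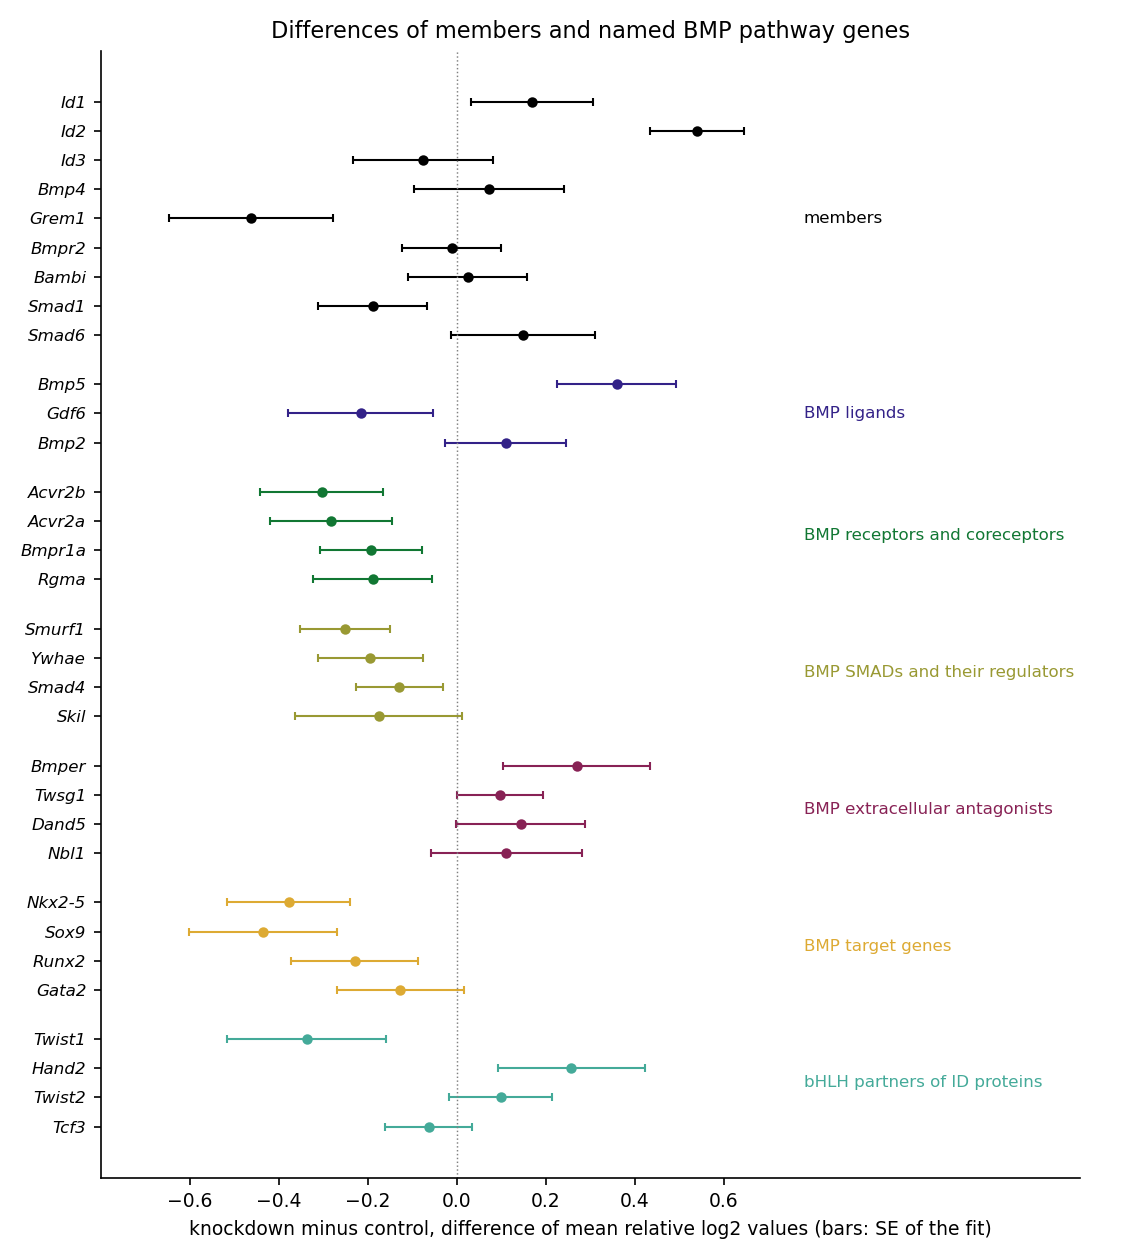
Difference of mean relative log2 values, knockdown minus control (x axis), with its SE, for the 9 members (black) and the named genes of 6 lists, 5 of the BMP pathway and 1 of bHLH partners (colors), over 14 control and 13 knockdown ROIs. Id2 at 0.54 and Grem1 at -0.46 lie farthest from 0, and Id2 was chosen with this contrast in view. In deposited values, which were scaled within each group, the Id2 difference was -0.06. No gene of the 6 lists was called.

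Whether Id2 followed the other Id genes or the leukocytes was looked at across ROIs within each group, on relative log2 values. In control ROIs (n = 14), Pearson's r of Id2 was 0.22 with Id1, 0.44 with Id3 and 0.42 with their mean. In knockdown ROIs (n = 13), it was -0.44, -0.40 and -0.58. So on relative values the sign of r differed between the groups. In deposited values r with the mean of Id1 and Id3 was 0.48 in control and -0.17 in knockdown ROIs. With the level of background targets, Id2 had r = 0.57, Id1 -0.18 and Id3 -0.34 in knockdown ROIs. In control ROIs these were -0.0032, -0.18 and -0.48, and the part of that level in the opposite signs was not tested. With Ptprc, which encodes the leukocyte antigen CD45, r was 0.49 in control and 0.12 in knockdown ROIs, and with the mean of 16 leukocyte genes 0.60 and -0.05. In knockdown ROIs the r with Ptprc depended on the measure: it was 0.35 as Spearman's rho, 0.36 after subtraction of the 75th percentile in place of the median and 0.43 in deposited values, against 0.43, 0.57 and 0.57 in control ROIs. Without the 2 ROIs farthest from the median on the x axis, r with Id3 was 0.08 in control and -0.17 in knockdown ROIs, with Id1 0.17 and -0.26, with their mean 0.47 and -0.51, and with Ptprc 0.58 and 0.10. ROI 28 had the lowest Id2 of the knockdown ROIs beside a Ptprc level of 2.22, and when ROIs were left out in turn the r with Ptprc ranged from -0.0095 to 0.44 in that group.

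The spread of Id2 among ROIs of a group was narrow and close in size to counting error. The SD of Id2 was 0.22 among control and 0.26 among knockdown ROIs, and the counting error of its reads alone gives an SD of 0.23 and 0.27. Without ROI 26 the SD in the knockdown group was 0.25 against 0.22 from counting. For Id3, by contrast, the SD among control ROIs was 0.43 against 0.19 from counting, and for Ptprc 0.46 against 0.17. Every r of Id2 given here rests on this narrow spread, and the part of counting error in these r values was not tested. The ROIs of a correlation share animals and each r is a description of these libraries.

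**Figure D3:**
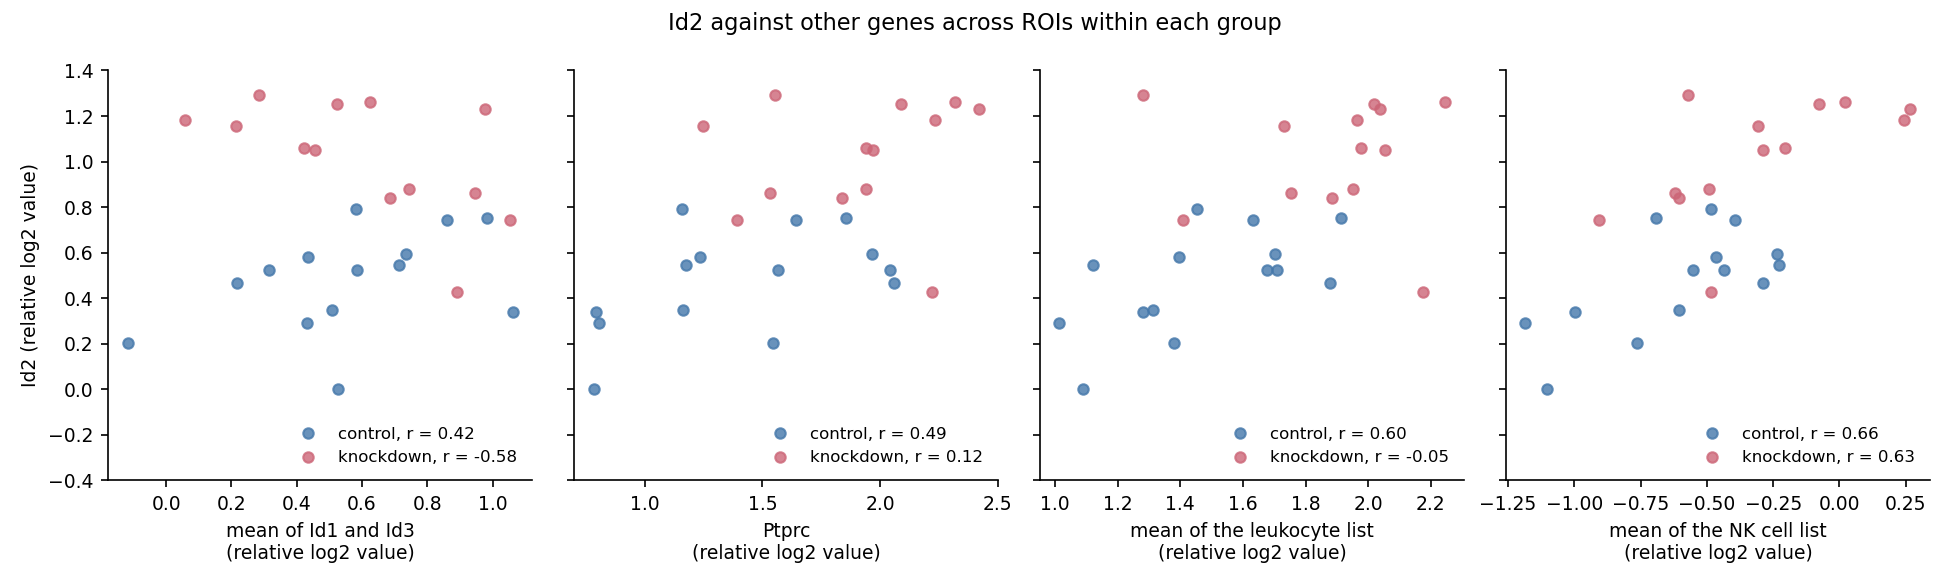
Relative log2 level of Id2 (y axis) against the mean of Id1 and Id3, Ptprc, the mean of 16 leukocyte genes and the mean of 10 NK cell genes (x axes) in 14 control and 13 knockdown ROIs (points), with Pearson's r per group. The sign of r differs between the groups for Id1 and Id3 (0.42 and -0.58), and r with the NK cell genes is 0.66 and 0.63. The spread of Id2 within a group is close in size to its counting error.

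Among the marker lists, r of Id2 was above 0.3 in both groups for NK cell genes (0.66 in control, 0.63 in knockdown ROIs) and for conventional dendritic cell genes (0.31 and 0.48). For the dendritic cell genes it was 0.19 and 0.21 as Spearman's rho, and 0.27 and 0.22 without the 2 farthest ROIs. The NK comparison was added after the data were seen. All 10 NK cell genes had a positive r with Id2 in both groups, from 0.16 (Tbx21) to 0.60 (Prf1, which encodes perforin) in control and from 0.17 (Ncr1) to 0.79 (Prf1) in knockdown ROIs. The r was 0.43 and 0.54 without the 2 farthest ROIs, and with each ROI left out in turn it ranged from 0.54 to 0.74 in control and from 0.57 to 0.76 in knockdown ROIs. These genes are sparse, with medians of 13 to 25 reads per ROI, and their mean also moved with the level of background targets (r = 0.59 and 0.41). Id2 itself had r = -0.0032 in control and 0.57 in knockdown ROIs with that background level, whose part in the NK values was not tested.

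Of 11317 targets above background, the 5 with the highest r with Id2 over 27 ROIs, each taken as deviation from its group mean, were Cytip (0.69), Fmnl1 (0.68), Prf1 (0.68), Gch1 (0.65) and Myo1g (0.64). Ptprc came 416th (r = 0.32), Id3 2961st and Id1 5537th. For Id1 they were Col18a1 (0.73), Mcam (0.72), Dusp3 (0.71), Nid1 (0.71) and Itga6 (0.71), with Pecam1, the endothelial antigen CD31, at rank 13 (0.67). For Id3 they were Selenow (0.77), Stab1 (0.75), Snap29 (0.74), Nkd2 (0.73) and Zfp526 (0.71), with Pecam1 at rank 274 (0.55). The first of so many targets reach a high r in part because they are the first. In the marker lists Id1 had r = 0.56 in control and 0.52 in knockdown ROIs with the 12 endothelial genes. Id3 had 0.83 and 0.54 with them (0.69 and 0.30 without the 2 farthest ROIs), and Id2 had 0.31 and -0.68. With the fibroblast and stellate cell list, r was 0.50 and 0.10 for Id1 and 0.77 and 0.08 for Id3. For Id2 it was 0.38 and -0.69 with that list. Without the 2 farthest ROIs these values were 0.55 and 0.06 for Id1, 0.37 and -0.37 for Id3, and 0.03 and -0.40 for Id2.

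Markers of other cells moved with the groups, and values for whole lists stand here beside the Id2 difference. In bulk segments, fewer cells of a type and less RNA per cell cannot be told apart. Of 16 leukocyte genes, limma called 2 higher in the knockdown group (0.111% of all targets were called higher) and edgeR called 9 higher (0.679% of all targets were called in either direction). At an unadjusted limma p under 0.05, 13 were higher, where 9.89% of all targets passed in either direction. The actin regulator Coro1a differed by 0.62 (SE 0.11, limma adjusted p = 0.00411) and the cytotoxic granule gene Nkg7 by 0.71 (SE 0.12, limma adjusted p = 0.00411). Ptprc differed by 0.49 (SE 0.15), which did not pass (limma adjusted p = 0.230). The leukocyte list took 8.1 to 16.1 of every 10000 reads in control and 11.2 to 21.7 in knockdown ROIs. In deposited values, which were scaled within each group, 3 of the 16 were called lower. The deposited mean of Coro1a, like that of Id2, was nearly the same in control (122 ± 23.7, SD, n = 14) and knockdown ROIs (124 ± 25.9, SD, n = 13).

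Of 10 NK cell genes none was called by limma or edgeR. At an unadjusted limma p under 0.05, 4 were higher (Klrd1, Klrk1, Gzma and Prf1, by 0.44 to 0.50), where 596 of all 18855 targets were higher. The list took 0.8 to 2.2 of every 10000 reads in control and 1.0 to 3.2 in knockdown ROIs. Of 10 conventional dendritic cell genes limma called none and edgeR 1, Irf8 (0.47, edgeR adjusted p = 0.00421), with 1.7 to 3.1 and 2.1 to 3.8 per 10000 reads. No defining marker was at 0, since the sheet lists no 0, but Klrb1c of NK cells and Xcr1 of dendritic cells lay at or below background. Within an ROI, log2 of Id2 over Ptprc had a median of -0.86 in control and -0.92 in knockdown ROIs, with a mean difference of 0.05 (SE 0.16). Over the leukocyte mean the difference was 0.13 (SE 0.12), over Coro1a -0.08 (SE 0.09) and over the NK cell mean 0.25 (SE 0.10). These ratios carry the Id2 difference with which the genes were chosen and are a description. The part of any leukocyte type in the Id2 difference was not tested.

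Beside the other members, endothelial and hypoxia genes are the lists of note. Of 12 endothelial genes limma and edgeR called none and 0 had an unadjusted limma p under 0.05. Their median difference was -0.15, and they took 4.2 to 9.1 of every 10000 control reads and 4.0 to 9.1 of every 10000 knockdown reads. Of 12 hypoxia genes limma called none, 8 were lower at an unadjusted limma p under 0.05 and edgeR called 3 lower (Ldha, Pgk1 and Vegfa). Of all 18855 targets, 1269 were lower at that unadjusted p and edgeR called 16 lower. The hypoxia list had a median difference of -0.44, and it took 10.7 to 39.5 of every 10000 reads in control against 8.4 to 13.8 in knockdown ROIs. Grem1, with its difference of -0.46, had r = 0.56 with the hypoxia list in control and -0.36 in knockdown ROIs, which became 0.19 and 0.40 without the 2 farthest ROIs, and the part of the hypoxia genes in its difference was not tested. Of 11 hepatocyte genes 9 were higher at an unadjusted limma p under 0.05 and edgeR called 6 higher (Alb, Apoa1, Apoa2, Apoc3, Fga and Fgg). Among all 18855 targets, 596 were higher at that unadjusted p and edgeR called 112 higher. limma called 2 higher, Apoa1 by 1.49 (SE 0.32, limma adjusted p = 0.0409) and Fga by 1.39 (SE 0.26, limma adjusted p = 0.0113), and the list took 1.4 to 5.3 and 2.5 to 12.4 of every 10000 reads. Id2 had r = 0.04 in control and -0.21 in knockdown ROIs with the hepatocyte list. Of 10 epithelial tumor cell genes and 9 TGF-β target genes none was called by limma or edgeR, and 0 and 1 (Tgif1, lower by 0.38) had an unadjusted limma p under 0.05.

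**Figure D4:**
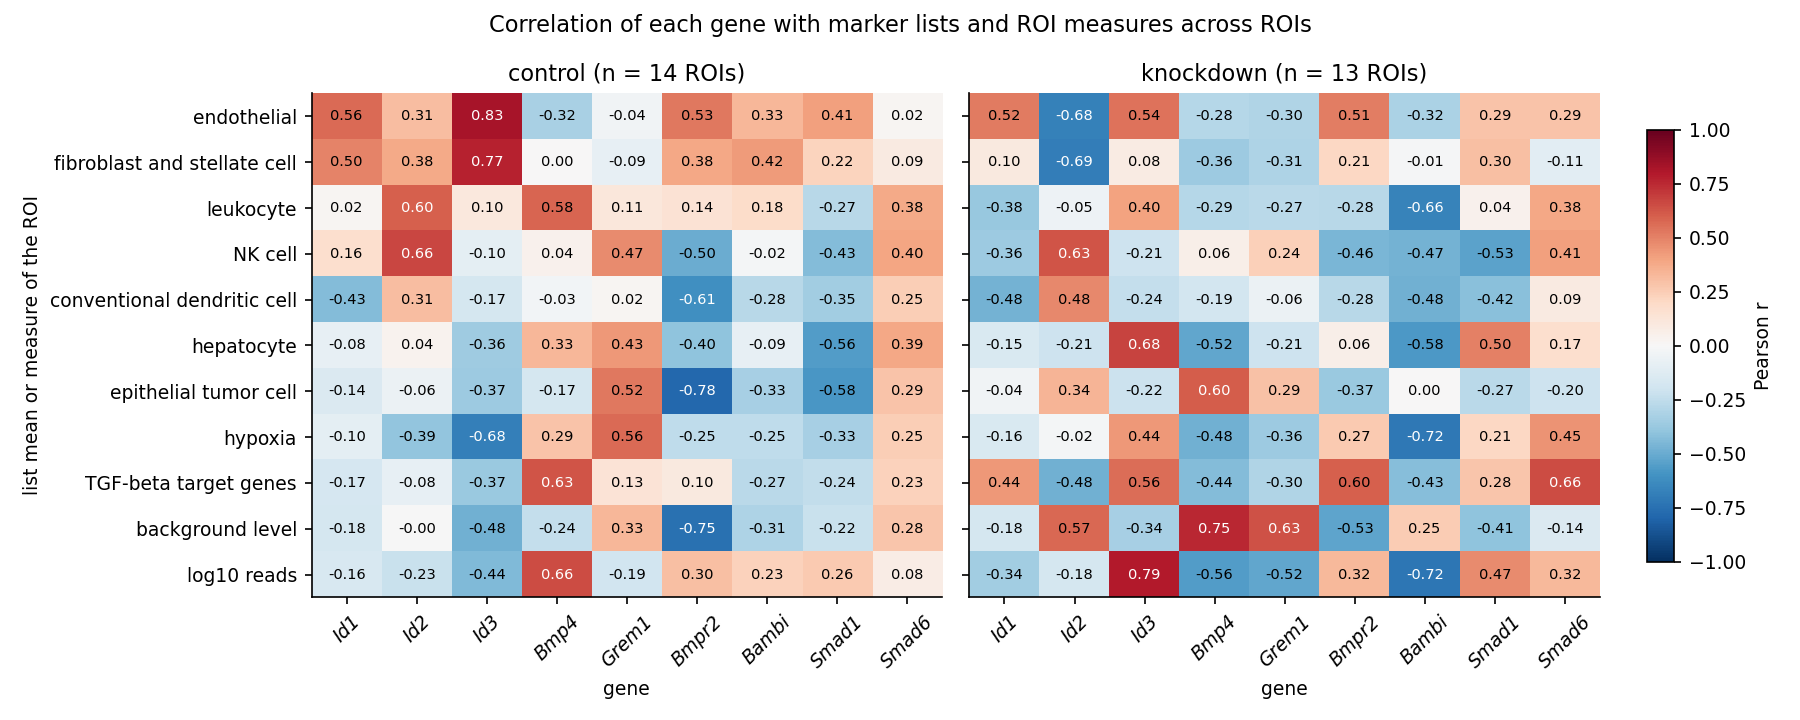
Pearson's r of each of the 9 genes (columns) with the mean of 9 gene lists, the level of background targets and log10 reads (rows), across 14 control ROIs (left) and 13 knockdown ROIs (right), on a color scale from -1 to 1. Id1 and Id3 are positive with the endothelial list in both groups (0.56 and 0.52, 0.83 and 0.54), and Id2 with the NK cell list (0.66 and 0.63). With the fibroblast and stellate cell list, Id1 has 0.50 and 0.10, Id3 0.77 and 0.08, and Id2 0.38 and -0.69.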

How the data were processed

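Desmin-positive segments of 14 control and 13 CMTM6-knockdown ROIs were analysed. The authors sequenced probe tags, ran the GeoMx DSP Analysis Suite and deposited 1 sheet of signal values. Its version, normalization and filters: not given in the sources used here. In each ROI over 99.98% of deposited values were whole multiples, within 0.001 reads, of 1 step, which gave back reads. Those factors bring ROIs close to a common 75th percentile within each group (70.3 to 72.6 in control, 43.9 to 45.7 in knockdown ROIs), except ROI 26 (56.4).

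Relative log2 values were log2(value + 1) minus the ROI median. Groups were compared with limma 3.58.1 (trend, two-sided) with Benjamini-Hochberg adjustment over all 18855 targets, and with edgeR 4.0.16 (quasi-likelihood, TMM) on recovered reads as an alternative. Both were tested on simulated data. Background was the 95th percentile (log2 4.12) of mean values over 1080 targets of families such as olfactory receptors and defensins, exceeded by 11318 targets. Members and gene lists were chosen with earlier results of these data known. Named were all members, called genes of each list or else up to 4 genes above background with the smallest p, the 5 targets most correlated with Id1, Id2 and Id3, Ptprc and Cmtm6. Genes outside this rule (Pecam1, Alb, Hamp and NK cell genes beyond it) were chosen after values were seen. Counting errors treat each read as independent and cover counting only. R 4.3.3, Python 3.11.15 and SciPy 1.17.1 were used.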

Additional observations from a re-analysis of the deposited data

How the results depend on the processing

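No paired analysis was possible because the ROI numbers of the groups do not repeat and the labels tie no ROI to a mouse. Without subtraction of the ROI median, the Id2 difference turned to -0.063 from 0.54, targets called were 13 higher and 17722 lower, 65 of 74 BMP pathway and bHLH genes outside the members were called, and r of Id2 with the mean of Id1 and Id3 in knockdown ROIs was -0.17 in place of -0.58. The groups had been scaled apart in these values. Against 21 higher and 1 lower, targets called were 33 and 25 with a pseudocount of 5, 58 and 8 among targets above background, 112 and 16 with edgeR, and 49 and 7 without ROI 26, and 2 were lower after subtraction of the 75th percentile. With each ROI left out in turn, they were 12 to 49 higher and 0 to 13 lower, none of the 74 was called, and the Id2 difference was 0.50 to 0.59. The Id2 difference was 0.46 to 0.61 under all other settings. When ROIs were left out in turn, r of Id2 with the mean of Id1 and Id3 ranged from 0.27 to 0.58 in the control group. In the knockdown group it ranged from -0.74 to -0.52, and it was -0.51 without the 2 farthest ROIs. Under the same leave-outs r with Ptprc ranged from 0.34 to 0.61 in the control group and from -0.0095 to 0.44 in the knockdown group. The cause of changed counts was not tested. Depth limits values of single ROIs, above all in ROI 26, where Smad6 had 1 read, Bmp4 2, Id3 2, Bambi 3, Id1 3 and Id2 5.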

Other observations

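Some relations of Id3 among ROIs had opposite signs in the groups, and that difference was not tested. With Vegfa its r was -0.70 in control and 0.66 in knockdown ROIs, and -0.57 and 0.52 without the 2 ROIs farthest from the median of Vegfa. With log10 reads it was -0.44 and 0.79, and -0.60 and 0.45 without the 2 farthest. The lowest knockdown levels of Id3 were those of ROI 25 and ROI 26, which rest on 8 and 2 Id3 reads and did not exceed background. With the other measures below, r is again that of Id3. With the hypoxia list the r of Id3 was -0.68 and 0.44, but -0.52 and -0.03 without the 2 farthest, so the opposite sign there rests on 2 ROIs. With Alb it was -0.37 and 0.80, but 0.12 and 0.13 without the 2 farthest. Bambi had r = -0.72 with the hypoxia list and -0.72 with log10 reads in knockdown ROIs, and -0.27 and -0.45 without the 2 farthest ROIs.

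Of the members' 36 pairs, 26 had a positive r in control ROIs, 21 in knockdown ROIs and 18 in both. The r was over 0.3 in both groups for 3 pairs: Smad1 with Bmpr2 (0.57 and 0.58), Id3 with Bmpr2 (0.43 and 0.44) and Bambi with Bmp4 (0.33 and 0.38). The last rests on few ROIs in the knockdown group, where Spearman's rho was 0.01 and ROI 26 had 3 Bambi and 2 Bmp4 reads. Bmpr2 had r = -0.75 and -0.53 with the level of background targets. With the spread of an ROI, the 75th percentile minus the median of its log2 values, Bmpr2 had r = 0.88 in control and 0.71 in knockdown ROIs. Smad1 had 0.41 and 0.57 with that spread, and Id3 had 0.13 and 0.56. The part of the spread in these pairs was not tested.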
